A study of Mus musculus with 4 samples.

Results

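The 10 genes described here encode the sensors of the unfolded protein response, its transcription factor Xbp1, and parts of ER-associated degradation (ERAD). They were chosen by name, each tied to its Ensembl identifier, and all 10 were found in all 4 deposited tables, among 20089 genes. RNA sequencing measured expression in HT22, a mouse cell line derived from immortalised neurons of the hippocampus, whose strain is given as C57BL/6. Control cells carried a control negative lentivirus and knockdown cells one aimed at Neat1, the long noncoding RNA of nuclear paraspeckles, so that every group had been infected with a lentivirus. Both were kept in DMEM/F12 with serum (normal culture) or under oxygen and glucose deprivation (OGD), a culture model of ischaemia whose duration is not given in the sources used here. Each of the 4 groups held 1 library, so there is no replicate check, no test was made and no difference below can be set against a spread between cultures.

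The unfolded protein response answers an overload of misfolded protein in the endoplasmic reticulum (ER). Its sensors are transmembrane proteins: IRE1 (gene Ern1) splices Xbp1 mRNA into a form that encodes an active transcription factor, PERK (Eif2ak3) slows translation by phosphorylating eIF2α, and ATF6 is cut in the Golgi to release a transcription factor. ERAD draws misfolded proteins out of the ER for destruction by the proteasome, and many of its genes are themselves targets of XBP1 and ATF6. In neurons this response is known to be engaged by ischaemia.

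In normal culture the library of control cells held 18596774 gene reads and that of knockdown cells 20764430. Under OGD they held 17232866 and 19066951. Levels are given as CPM, the read count relative to library size, here scaled with TMM factors. Ratios are log2 ratios with 0.5 CPM added, and a gene is called higher or lower at 2-fold, a rule of size applied where the higher library had at least 20 reads. Folds and the 95% intervals in parentheses are computed without the added 0.5 CPM. The intervals of folds are exact and cover counting error only, since each group held 1 library. The reads carry no molecular identifiers, and the intervals treat each read as a separate molecule. Neat1 itself stood at 193 CPM in control and 121 CPM in knockdown cells in normal culture, and at 74.4 and 42.1 CPM under OGD, 1.60-fold and 1.77-fold lower. The library of control cells in normal culture stood apart: 13 markers of brain neurons summed to 2909 CPM there, against 45.0 CPM in knockdown cells in normal culture, 185 CPM in control cells under OGD and 381 CPM in knockdown cells under OGD. Of those 13 markers, 7 had fewer than 20 reads in knockdown cells in normal culture. Within the sums under OGD, Eno2 held 101 CPM in control and 166 CPM in knockdown cells, and Tubb3 54.0 and 21.4 CPM. With OGD in control cells 11 of the 13 lay below 0, while Eno2 stood at a log2 ratio of 1.59 and Tubb3 at 0.01. Summed over 16 markers of glia, vessels, blood and fibroblasts the levels were 2974, 2028, 1660 and 851 CPM, with the libraries ordered as in the first sums. Without the collagen gene Col1a1 and Pdgfrb, whose log2 ratios with knockdown under OGD were -1.10 and -0.83, the other 14 summed to 262, 5.82, 9.62 and 80.4 CPM. Among these, the microglial gene Aif1 held 2 reads in control cells in normal culture and 0 in every other library. Cx3cr1 and P2ry12, also microglial, held 6 reads each in control cells in normal culture. In knockdown cells under OGD they held more, 10 and 15 reads. The library of control cells in normal culture enters the knockdown comparison in normal culture and the OGD comparison in control cells. It also enters the difference between the knockdown ratios. It does not enter the knockdown comparison under OGD or the OGD comparison in knockdown cells. Genes of ribosomal RNA repeats took 1.81% of reads in control and 4.32% in knockdown cells in normal culture, and 4.78% and 0.341% under OGD, so that the knockdown library under OGD was lowest. The part of these transcripts in the results below was not tested. In bulk RNA, fewer cells of a type and less RNA per cell cannot be told apart.

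The start regions of Herpud1, Syvn1 and Xbp1 are shown because these are the members with the widest range of levels. They are RefSeq windows on GRCm38.p6, from 250 bases before to 50 after the annotated start: chr8:94386179-94386478 (plus strand) for Herpud1, chr19:6046326-6046625 (plus strand) for Syvn1 and chr11:5520391-5520690 (plus strand) for Xbp1. Capitals mark the fixed bases of an ER stress response element, a pair of short boxes known as a binding site of ATF6 and XBP1 together with NF-Y.
Herpud1: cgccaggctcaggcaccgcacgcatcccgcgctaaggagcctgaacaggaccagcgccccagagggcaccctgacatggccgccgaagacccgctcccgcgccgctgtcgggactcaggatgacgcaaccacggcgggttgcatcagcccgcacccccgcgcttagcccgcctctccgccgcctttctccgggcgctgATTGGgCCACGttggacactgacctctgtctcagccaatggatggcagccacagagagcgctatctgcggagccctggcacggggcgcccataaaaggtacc
Syvn1: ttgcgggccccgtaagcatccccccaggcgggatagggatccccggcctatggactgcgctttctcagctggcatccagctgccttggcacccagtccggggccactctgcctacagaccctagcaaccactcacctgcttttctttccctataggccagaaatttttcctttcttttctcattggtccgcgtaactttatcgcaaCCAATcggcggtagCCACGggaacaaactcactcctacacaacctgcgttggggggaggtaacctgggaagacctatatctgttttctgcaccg
Xbp1: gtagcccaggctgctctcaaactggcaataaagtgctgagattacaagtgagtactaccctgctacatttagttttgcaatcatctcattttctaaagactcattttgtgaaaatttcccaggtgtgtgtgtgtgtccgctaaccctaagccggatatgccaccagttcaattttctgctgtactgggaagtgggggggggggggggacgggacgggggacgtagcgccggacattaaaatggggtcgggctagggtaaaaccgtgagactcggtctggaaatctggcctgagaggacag
The Syvn1 window held the element in its first form, CCAAT and CCACG with 9 bases between them, at -44 to -26 with the start site counted as 0. Of 32851 windows of this length, 0.119% held that form on either strand. In the Herpud1 window stood the form called ERSE-II, ATTGG and CCACG with 1 base between them, at -52 to -42, a form present in 0.0365% of all windows. Herpud1 also held, at -112 to -105 on the minus strand, the C/EBP-ATF element bound by ATF4, TGATG and AA with 1 base between them, which 3.97% of windows hold. No window of the 8 members with one held the XBP1 element TGACGTGG, which 0.676% of all windows held. The hypoxia core ACGTG, in 19.6% of windows, stood in those of Herpud1 and Atf6b, and in Herpud1 it overlapped ERSE-II. The other hypoxia core, GCGTG, in 32.4% of windows, stood in those of Atf6b, Edem1, Ern1, Herpud1 and Sel1l. These are matches of letters, not sites shown to be bound. The table of windows was not matched for Atf6 and Derl1.

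The highest level of 7 of the 10 genes was in control cells under OGD: Xbp1, Ern1, Atf6, Syvn1, Herpud1, Derl1 and Edem1. Among 15086 genes, 20.3% had their highest level in that library. The others, Eif2ak3, Atf6b and Sel1l, were highest in control cells in normal culture, as were 29% of genes. With TMM scaling none was highest in a library of knockdown cells, where 27.3% of genes were highest in normal culture and 23.4% under OGD. This depended on scaling for Atf6 and Edem1, which with total counts stood higher in knockdown than in control cells under OGD. The deposited FPKM value of Atf6 was also highest in knockdown cells under OGD, at 4.35 against 3.98 in control cells under OGD. The ratio of highest to lowest level ran from 1.13 for Sel1l to 8.25 for Herpud1, with Xbp1 at 3.60 and Syvn1 at 2.98.

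**Figure D1:**
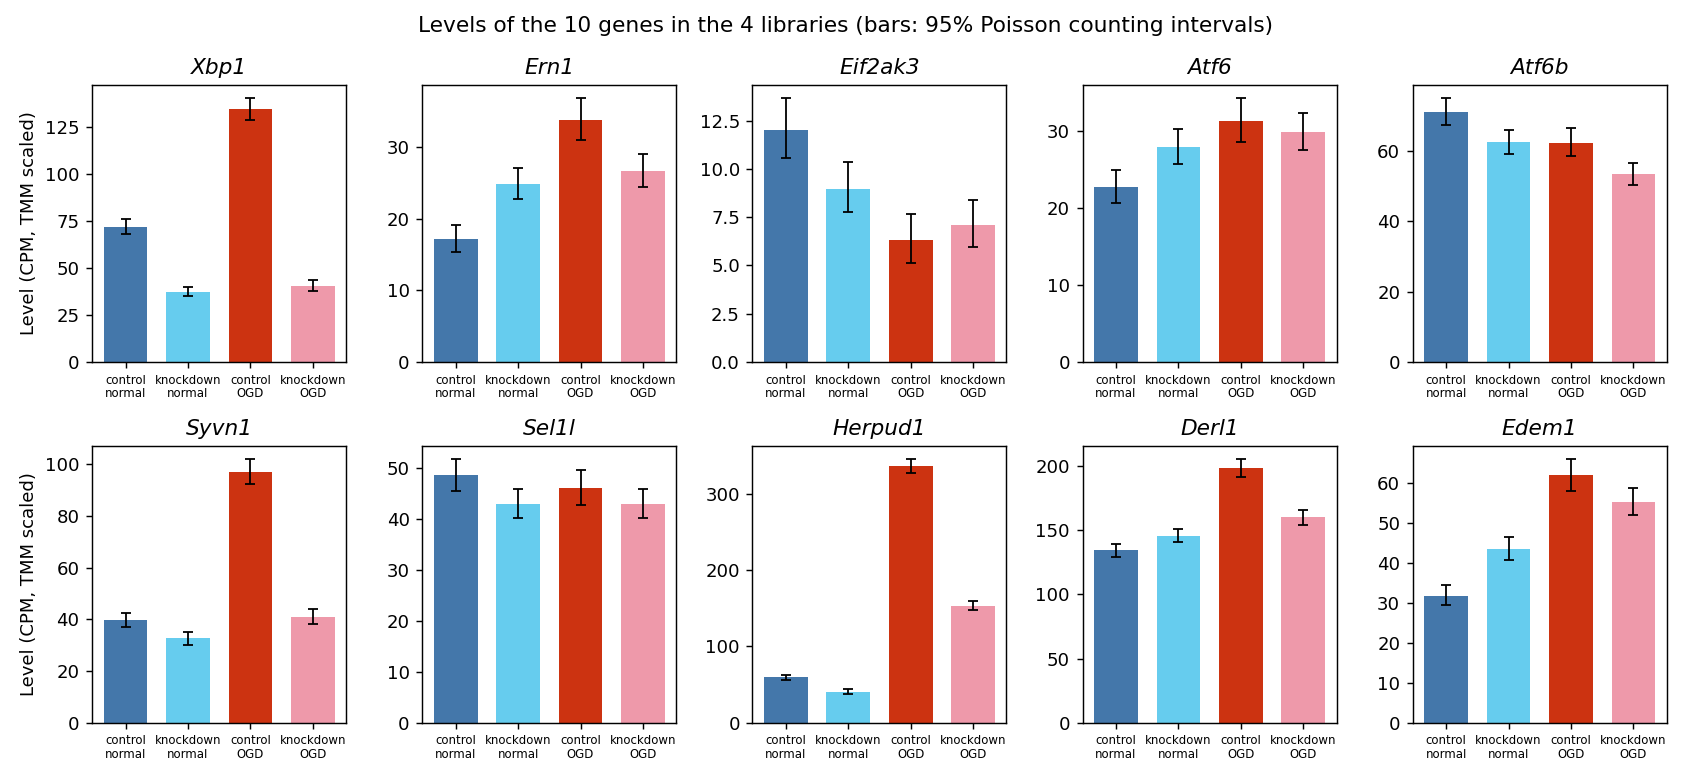
Level of each of the 10 genes in the 4 libraries, in CPM on a linear axis, with exact Poisson intervals that cover counting error only. Herpud1, Syvn1 and Xbp1 stand highest in control cells under OGD, and Sel1l lies between 43.0 and 48.7 CPM in every library.

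Among the sensors, Ern1 (IRE1; ENSMUSG00000020715, chromosome 11, 106394650 to 106487852, minus strand) stood at 17.2 CPM in control cells and 24.9 CPM in knockdown cells in normal culture, and at 33.9 and 26.7 CPM under OGD. Its levels in the libraries of knockdown cells, 22.8 to 27.1 CPM and 24.5 to 29.1 CPM, overlapped within counting error, and lay between those of the control libraries. With knockdown, Ern1 was thus 1.45-fold higher in normal culture (1.26 to 1.67) and 1.27-fold lower under OGD (1.12 to 1.43). OGD in control cells went with a 1.97-fold higher level (1.71 to 2.27), a log2 ratio of 0.96 that stopped just short of 2-fold and passed it with median-of-ratios scaling and with the deposited FPKM values.

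Eif2ak3 (PERK; ENSMUSG00000031668, chromosome 6, 70844515 to 70905245, plus strand) was the member with the fewest reads, 236 and 193 in control and knockdown cells in normal culture and 97 and 139 under OGD. These were 12.0, 8.98, 6.31 and 7.10 CPM. It was the sole member to be lowest in control cells under OGD, 1.91-fold below control cells in normal culture (1.5 to 2.44). Its log2 ratio there, -0.88, passed 2-fold with total counts and with the deposited FPKM values. Knockdown under OGD gave 1.13-fold (0.862 to 1.47), an interval that spans 1 and leaves a difference not detectable at this depth, and its log2 ratio turned from 0.16 to -0.21 with FPKM.

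The third sensor and its relative varied less. Atf6 (ENSMUSG00000026663, chromosome 1, 170704674 to 170867771, minus strand) stood at 22.7 and 27.9 CPM in control and knockdown cells in normal culture and at 31.3 and 29.8 CPM under OGD. Counting intervals of the libraries other than control cells in normal culture overlapped, and that library lay below them. Atf6b (ENSMUSG00000015461, chromosome 17, 34647146 to 34655074, plus strand), which encodes the paralogue ATF6β, stood at 71.2 and 62.6 CPM in normal culture and 62.3 and 53.4 CPM under OGD. The level of Atf6b was lowest in knockdown cells under OGD, where none of the other members had its lowest value, and its log2 ratios lay between -0.23 and -0.18 in the 4 comparisons of a pair of libraries. With FPKM those of Atf6b were 0.03 with knockdown under OGD and 0.02 with OGD in knockdown cells, and that of Atf6 with knockdown under OGD was 0.11 in place of -0.07. In the deposited FPKM values, which divide by length and so allow genes to be compared, Atf6b held 28.9 to 38.6 FPKM, while Atf6 held 3.40 to 4.35, Ern1 3.79 to 9.36 and Eif2ak3 1.98 to 6.42 FPKM.

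Xbp1 (ENSMUSG00000020484, chromosome 11, 5520659 to 5525893, plus strand), the transcription factor gene downstream of IRE1, stood at 72.0 CPM in control cells and 37.3 CPM in knockdown cells in normal culture. With OGD, control cells held 134 CPM and knockdown cells 40.4 CPM. The levels of the knockdown libraries, 34.8 to 40.0 and 37.6 to 43.3 CPM, overlapped within counting error and lay below both control libraries. Knockdown went with a 1.93-fold lower level in normal culture (1.77 to 2.10), short of 2-fold, and a 3.33-fold lower level under OGD (3.06 to 3.61). OGD went with 1.87-fold more Xbp1 in control cells (1.74 to 2.00) and 1.08-fold in knockdown cells (0.980 to 1.20), an interval that spans 1. Reads were counted per gene, so spliced and unspliced Xbp1 mRNA were not separated, and the activity of IRE1 cannot be read from these levels.

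Of the ERAD members, Herpud1 (HERP, a membrane protein that helps assemble the HRD1 ligase complex; ENSMUSG00000031770, chromosome 8, 94386438 to 94395377, plus strand) had the widest range. In normal culture it stood at 59.4 CPM in control and 40.8 CPM in knockdown cells, and under OGD at 337 and 154 CPM. Both OGD libraries lay above both libraries of normal culture, and within each culture the knockdown library lay below the control library. The OGD ratio was 5.67-fold in control cells (5.32 to 6.05), above 99.5% of genes compared, and 3.76-fold in knockdown cells (3.49 to 4.06). With knockdown Herpud1 was 1.45-fold lower in normal culture (1.33 to 1.59) and 2.19-fold lower under OGD (2.10 to 2.29). That last call was lost with total counts and with FPKM, its log2 ratio moving from -1.13 to as near 0 as -0.90. An antisense gene, Gm15890, shares 535 bases with Herpud1 and is not listed in the tables. The sources used here do not say whether counting used strand, and its reads cannot be told apart from those of Herpud1.

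Syvn1 (HRD1, the ubiquitin ligase of the main ERAD complex; ENSMUSG00000024807, chromosome 19, 6046576 to 6053712, plus strand) stood at 39.6 and 32.6 CPM in control and knockdown cells in normal culture and at 97.1 and 41.0 CPM under OGD. Control cells under OGD stood apart, and the level of knockdown cells under OGD overlapped that of control cells in normal culture within counting error. OGD went with a 2.45-fold higher level in control cells (2.25 to 2.68) and a 1.26-fold higher level in knockdown cells (1.13 to 1.39). Knockdown under OGD went with a 2.37-fold lower level (2.17 to 2.58), and in normal culture with a 1.21-fold lower one (1.10 to 1.35). The call under OGD was lost with FPKM, at a log2 ratio of -0.9991. Over the 4 libraries Syvn1 was the member whose centred profile lay nearest that of Xbp1. Syvn1 shares 91 bases at its end with Mrpl49 on the opposite strand, which held 1384 to 2001 reads.

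Sel1l (ENSMUSG00000020964, chromosome 12, 91806043 to 91849157, minus strand), the adaptor that holds HRD1 in its complex, varied least of the members in CPM. It stood at 48.7 and 43.0 CPM in normal culture and at 46.2 and 43.0 CPM under OGD, for control and knockdown cells. The counting intervals of those levels overlapped from one neighbour to the next. Even so, knockdown in normal culture went with a 1.13-fold lower level (1.03 to 1.24), an interval clear of 1. Set beside its ligase partner, Sel1l gave a log2 ratio of -0.08 with OGD in control cells where Syvn1 gave 1.28. In the deposited FPKM values Sel1l ran from 8.15 to 13.2. As a ratio of highest to lowest, this was wider than the ranges of Atf6, Atf6b and Derl1. With FPKM the log2 ratio of Sel1l with OGD in control cells was -0.66. Its ratio with knockdown under OGD was -0.10 by reads and 0.19 with FPKM.

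Derl1 (ENSMUSG00000022365, chromosome 15, 57869502 to 57892448, minus strand) encodes Derlin-1, a membrane protein of the retrotranslocation step. It stood at 134 and 146 CPM in control and knockdown cells in normal culture and at 199 and 160 CPM under OGD. The highest library was again control cells under OGD, 1.48-fold above control cells in normal culture (1.40 to 1.56), and no ratio of Derl1 reached 2-fold. Edem1 (ENSMUSG00000030104, chromosome 6, 108828641 to 108859356, plus strand), which takes part in the trimming of mannose from misfolded glycoproteins, stood at 31.8 and 43.6 CPM in normal culture and 61.9 and 55.2 CPM under OGD. Its OGD ratio was 1.95-fold in control cells (1.76 to 2.16) and 1.27-fold in knockdown cells (1.16 to 1.38), both short of 2-fold. With FPKM the log2 ratio of Edem1 was 1.08 in control cells, past 2-fold, and -0.01 in knockdown cells.

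**Figure D2:**
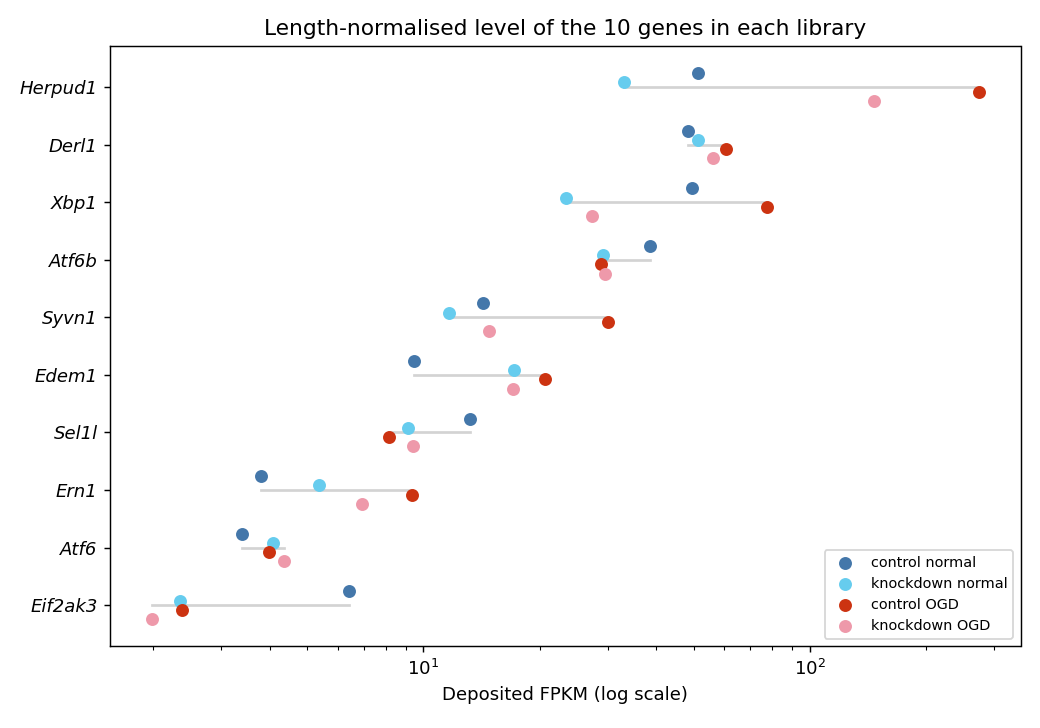
Deposited FPKM of each gene in the 4 libraries on a log axis, which allows levels of different genes to be compared per length. Herpud1 reaches 274 FPKM in control cells under OGD, while Atf6 stays between 3.40 and 4.35 FPKM.

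Per length, the order of the genes in control cells in normal culture ran from Herpud1 (51.5 FPKM) through Xbp1 (49.5), Derl1 (48.3), Atf6b (38.6), Syvn1 (14.3), Sel1l (13.2), Edem1 (9.45), Eif2ak3 (6.42) and Ern1 (3.79) to Atf6 (3.40 FPKM). The ERAD membrane proteins and Xbp1 thus stood above the sensors other than Atf6b. In knockdown cells in normal culture Derl1 led with 51.2 FPKM, and Xbp1 came after Derl1, Herpud1 and Atf6b with 23.4 FPKM. In FPKM Eif2ak3 was the lowest of the 10 in all libraries but that of control cells in normal culture, while by reads it was lowest in all 4. In control and knockdown cells in normal culture it stood at 6.42 and 2.35 FPKM, against 12.0 and 8.98 CPM.

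Which of these genes differ with the Neat1 lentivirus in unstressed cells is the first comparison of the design. In normal culture 0 of the 10 were higher and 0 lower at 2-fold, where 6.25% of 14554 genes were higher and 16.3% lower. Their median log2 ratio was -0.18, and that of all genes -0.03. Xbp1 had the lowest ratio at -0.94, followed by Herpud1 at -0.53 and Eif2ak3 at -0.40. The highest were Ern1 at 0.52, Edem1 at 0.45 and Atf6 at 0.29. With FPKM in place of reads, Xbp1 and Eif2ak3 were lower at 2-fold.

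Under OGD the same lentivirus went with a lower level of 3 of the 10 genes and a higher level of 0 at 2-fold. The 3 were Xbp1 at -1.72, Syvn1 at -1.23 and Herpud1 at -1.13. Of 13388 genes, 4.23% were lower and 10.7% higher, so that calls among all genes lay mostly on the other side: 71.7% of them were higher, and 82.3% with total counts. The members' median was -0.27 and that of all genes -0.0007. In all, 9 of 10 members lay below 0, which became 6 of 10 with total counts, when Atf6, Sel1l and Edem1 changed sign. That scaling moved the median of all genes by 0.19. Xbp1 was lower at 2-fold under each of the alternatives tried, with log2 ratios of -1.73 to -1.49. Of the 13 brain neuron markers, 11 were higher at 2-fold in the knockdown library here and 1, Tubb3, was lower, at -1.31. Ribosomal RNA repeats took 0.341% of reads in the knockdown library against 4.78% in the control library. The part of either in these ratios was not tested.

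**Figure D3:**
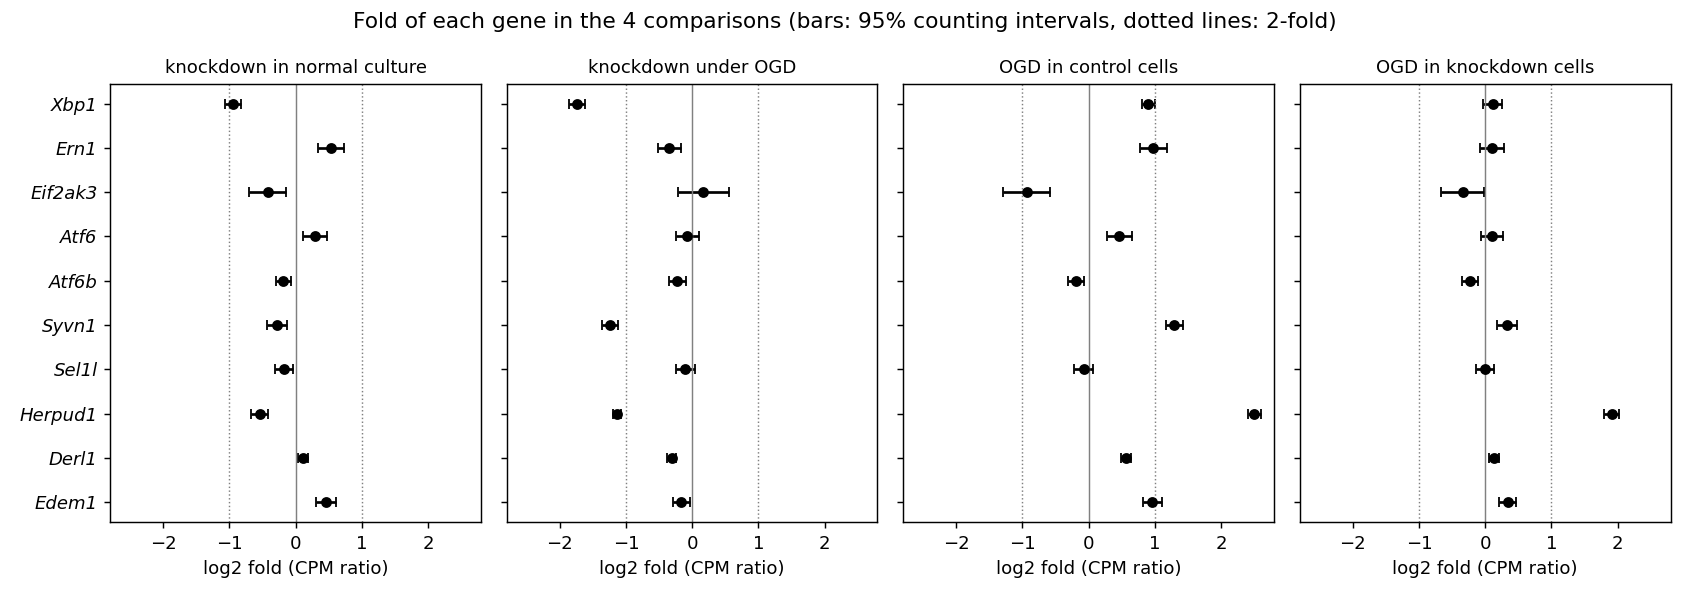
Log2 fold of each gene, without added CPM, in the comparisons of a pair of libraries, with 95% counting intervals and dotted lines at 2-fold. Xbp1, Syvn1 and Herpud1 lie below the lower line with knockdown under OGD, and Herpud1 and Syvn1 above the upper line with OGD in control cells.

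What OGD does to these genes was compared within each lentivirus. In control cells 2 of the 10 were higher, Herpud1 at 2.49 and Syvn1 at 1.28, and 0 were lower, against 9.36% higher and 22.2% lower among 14101 genes. The share of higher genes among all calls was 29.7%, and 18.5% with total counts, a scaling that shifted the all-gene median by -0.23. The median of the members was 0.73 and that of all genes -0.11. Just below 2-fold lay Ern1 at 0.96, Edem1 at 0.95 and Xbp1 at 0.90. Derl1 (0.56) and Atf6 (0.46) were nearer 0, and Sel1l (-0.08), Atf6b (-0.19) and Eif2ak3 (-0.88) lay below it.

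In knockdown cells 1 of the 10 was higher with OGD, Herpud1 at 1.90, and 0 were lower, against 19.1% higher and 16.9% lower among 14071 genes. The median of the members was 0.11 and that of all genes -0.0020. Syvn1 stood at 0.33 and Edem1 at 0.34, and Xbp1, Ern1, Atf6 and Derl1 between 0.10 and 0.13. Eif2ak3 was again below 0, at -0.32. Genes known to be induced by hypoxia were higher in both kinds of cell, 10 of 10 in each, with medians of 2.87 in control and 3.43 in knockdown cells.

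The difference between the knockdown ratios, that under OGD minus that in normal culture, uses all 4 libraries and equals the difference between the OGD ratios. It was below 0 for 8 of the 10 genes and above 0 for Eif2ak3 and Sel1l, with a median of -0.51 against -0.04 for all genes. At 2-fold 0 members passed, where 15.2% of 12856 genes were higher and 6.85% lower. The lowest were Syvn1 at -0.96 (counting interval -1.16 to -0.77), Ern1 at -0.86 (-1.14 to -0.61) and Xbp1 at -0.78 (-0.96 to -0.62). Edem1 stood at -0.61 and Herpud1 at -0.60. Eif2ak3 was the highest at 0.56 (0.13 to 1.06). Syvn1 passed 2-fold with median-of-ratios scaling. No spread between cultures is available against which to set these differences.

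Other genes of the pathway were taken from lists that overlap one another. Their counts are to be read against the shares of all genes. With OGD these were 9.36% higher and 22.2% lower in control cells, and 19.1% and 16.9% in knockdown cells. With knockdown they were 10.7% higher and 4.23% lower under OGD, and 6.25% and 16.3% in normal culture. PERK branch targets, the genes induced through eIF2α phosphorylation and ATF4, were the group with the most calls under OGD. In control cells 13 of 14 were higher (median 2.27) and 0 lower, and in knockdown cells 11 of 14 were higher (median 1.43) and 0 lower, while Eif2ak3 itself was not higher in either. Chac1, a glutathione-degrading enzyme, was 8.76-fold higher in control cells (7.93 to 9.70), and Ddit3 (CHOP), a factor known for promoting cell death, stood at 41.2 CPM in normal culture and 278 CPM under OGD, 6.74-fold higher (6.25 to 7.27). With knockdown under OGD 0 of 14 passed 2-fold in either direction, with a median of -0.13, Ddit3 at -0.85 and the stress factor Atf3 at 0.86. In normal culture knockdown gave 0 of 14 and a median of 0.39.

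The ATF6 branch targets, mostly ER chaperones, hold Herpud1, Syvn1 and Sel1l among their 14 genes. Leaving those out, 3 of the 10 others with enough reads were higher with OGD in control cells and 0 lower. All 10 lay above 0, with a median of 0.43. With total counts 8 of 10 lay above 0, 2 were higher at 2-fold and the median was 0.19. The main ER chaperone Hspa5 (BiP) stood at 532 and 490 CPM in control and knockdown cells in normal culture and at 1624 and 865 CPM under OGD, which is 3.05-fold with OGD in control cells (2.98 to 3.12) and 1.76-fold in knockdown cells (1.72 to 1.81). Creld2 and the disulphide isomerase Pdia4 were the others, at 2.44-fold and 2.11-fold. In knockdown cells 0 of the 10 passed. With knockdown under OGD 10 of 10 lay below 0, with a median of -0.87, and remained so with total counts, with a median of -0.67. Of these, Creld2 alone was lower at 2-fold, at -1.13, with Manf, a secreted ER stress factor, at -0.94, Hsp90b1 at -0.92 and Hspa5 at -0.91. Creld2 was not lower at 2-fold with total counts.

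XBP1 branch targets, which serve protein entry, glycosylation and export, gave few calls. With OGD in control cells the median was 0.07 (-0.17 with total counts), and 1 of 26 was higher and 1 lower. The higher gene was the co-chaperone Dnajb9 (ERdj4), at 6.04-fold (5.09 to 7.20), and the lower was the signal peptidase subunit Spcs3, at -1.26. In knockdown cells Dnajb9 was 11.2-fold higher with OGD (8.89 to 14.3), while Xbp1 differed there by 1.08-fold. The transport coat gene Sec24d was the other of 2 higher there, at 1.01, and Spcs3 the 1 lower, at -1.79. With knockdown under OGD 0 of 26 passed 2-fold in either direction and 22 of 26 lay below 0, with a median of -0.26. Those below 0 were 16 of 26 with total counts, with a median of -0.06. In normal culture knockdown gave 0 higher and 1 lower, Dnajb9 at -1.06.

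The other ERAD genes, 30 of 32 past the floor, were mixed. With OGD in control cells their median was 0.36. There 3 of the 30 were higher and 2 lower, against 9.36% and 22.2% of all genes, so the share higher was near that of all genes. The lectin Os9, which delivers glycoproteins to the HRD1 complex, was 2.16-fold higher (2.02 to 2.32), Ubxn4 2.15-fold higher, and the ligase gene Marchf6 stood at a log2 ratio of 1.01. The reductase Dnajc10 and the glycoprotein-binding F-box gene Fbxo2 were lower, at -1.05 and -1.04. With total counts 0 were higher. In knockdown cells their median was 0.22. The 3 higher there were Ubxn4 at 1.53, Edem3, a relative of Edem1, at 1.47 and Bag6 at 1.06, and the 1 lower was Dnajc10 at -1.35. With knockdown under OGD 0 of 30 passed in either direction, with a median of -0.15, which was 0.05 with total counts. Edem3 was the 1 gene lower with knockdown in normal culture, at -1.24.

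**Figure D4:**
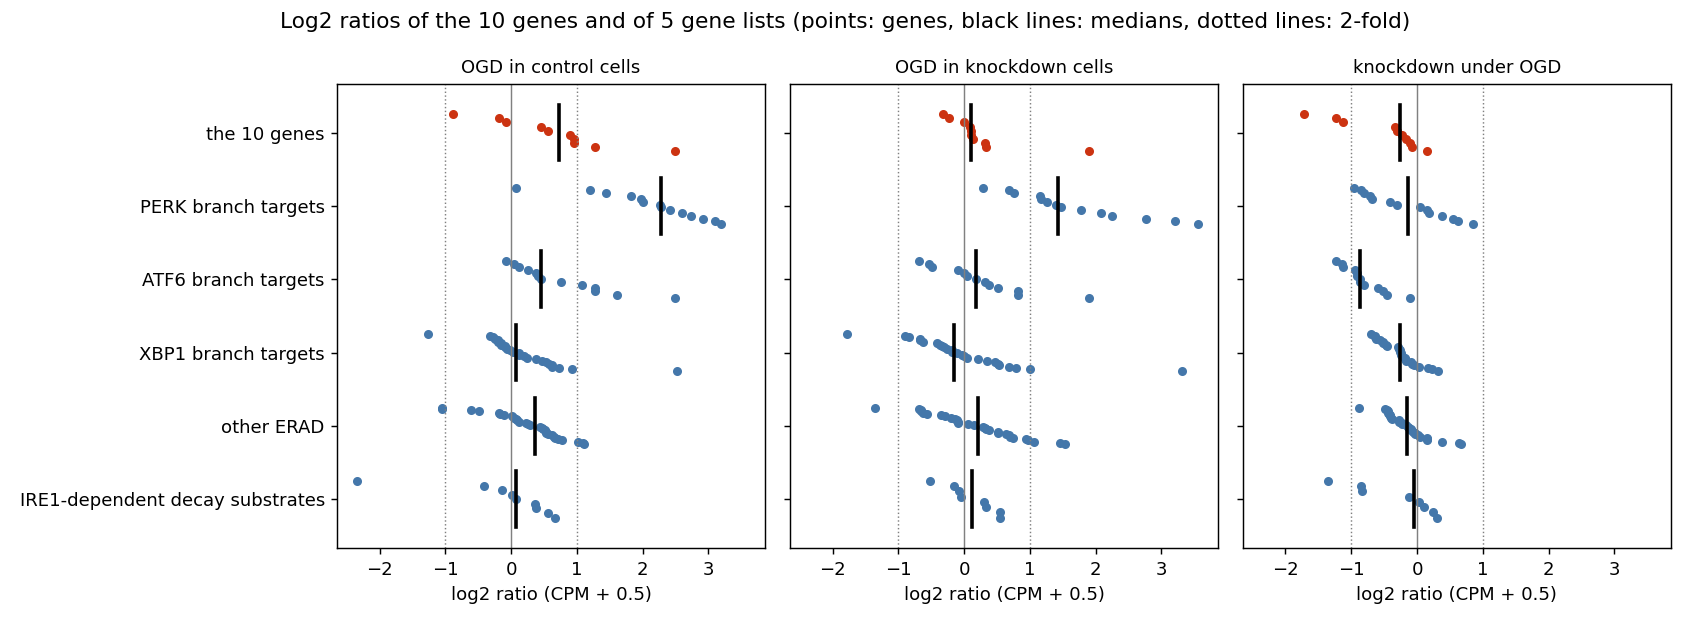
Log2 ratios of the members and of the other gene lists of the pathway, 1 point per gene past the floor, for OGD in control cells, OGD in knockdown cells and knockdown under OGD. PERK branch targets lie to the right of 0 in both OGD panels, and ATF6 branch targets to the left of 0 with knockdown under OGD.

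Over the 4 libraries, the genes whose centred log2 profiles lay nearest that of Xbp1, among 8472 genes with at least 100 reads in each library, included Col6a1, the nearest (Euclidean distance 0.30), Atp8b2 (0.48), Tbca (0.49) and Idh1 (0.51). Syvn1 lay at 0.65. Col6a1 stood at 116 and 53.8 CPM in control and knockdown cells in normal culture and 170 and 66.5 CPM under OGD. Among those nearest the mean profile of the 10 members were Vangl1 (0.03), Vdac1 (0.05), Mars (0.06) and Sbf2 (0.06). Likeness over 4 libraries is a description of these libraries only.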

How the data were processed

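Per the labels' protocols, total RNA was isolated with TRIzol, fragmented, copied to cDNA with deoxy-UTP in a single strand and amplified by PCR. Per the submitters' processing notes, TopHat2 and mm10 were used. Not given in the sources used here were the aligner's version, the counter, the annotation and the strand setting. Each of the 4 tables that the authors deposited covers a pair of libraries and, per the file headers, holds scaled mean counts (a signal per library), a fold ratio, its log2 and p-values. The deposited fold ratio, log2 and p-values were not used. The unit of a further pair of deposited columns, headed by sample number, is not named. From their values these were read as FPKM made by the authors before they deposited the tables, by a program that no source used here names.

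Whole reads were recovered from the deposited scaled counts, 100% of values being whole at a tolerance of 1e-06, so that the plan for counts was followed. Genes missing from a library's tables were counted as 0 reads. TMM factors, computed with edgeR 4.0.16 in R 4.3.3, were 1.05 and 1.03 for control and knockdown cells in normal culture and 0.893 and 1.03 under OGD. Ratios used scipy 1.17.1, pandas 2.3.3 and numpy 2.4.6 under Python 3.11.15, and plots matplotlib 3.10.9. Adding 0.5 CPM understates the ratio of low genes. Intervals are exact Poisson for a level, exact conditional binomial for a fold and normal approximations from Poisson counts for a difference of ratios. With 1 library per group, no p-value was computed. The ratio script was tested on simulated data.

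Names and coordinates came from GENCODE mouse release 21 (GRCm38), which matched 19950 of 20089 genes. The members and lists were chosen with earlier results of these data known. The 11 other lists held 154 symbols, of which 153 matched, and Ern2 was not matched. Genes named are the members, up to 4 genes of each list with the largest ratio among those with at least 100 reads, Neat1, and the 5 genes nearest Xbp1 and nearest the members' mean. Some genes that this rule takes are not reported here. Aif1, Cx3cr1, P2ry12, Eno2, Tubb3, Col1a1 and Pdgfrb as markers were named after their values were seen, for the result beside them. So were Gm15890, Marchf6 under OGD, Map3k5, Mrpl49 and Scara3. Alternatives were total counts, median-of-ratios size factors, TMM without genes 4-fold apart in 1 library, adding 0.1 or 2 CPM, no floor or one of 100 reads, and FPKM. Value columns that matched no sample numbered 0.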

Additional observations from a re-analysis of the deposited data

Results flagged for a closer look

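For 3 genes the knockdown ratio pointed one way in normal culture and the other way under OGD. With TMM scaling, both counting intervals of each gene were clear of a fold of 1. Ern1 stood at 0.52 and -0.34, a log2 difference of -0.86. Edem1 stood at 0.45 and -0.16, a difference of -0.61. Derl1 stood at 0.12 and -0.31, a difference of -0.43. Atf6 (0.29 and -0.07) and Eif2ak3 (-0.40 and 0.16) also had opposite signs, but their intervals under OGD span 1. With 1 library per group these differences were not tested. With total counts, the ratio of Ern1 under OGD was -0.14 and that of Edem1 lay above 0. Under the alternatives tried, the ratio of Derl1 under OGD came as near 0 as -0.11. Intervals were not recomputed with other scalings.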

How the results depend on the processing

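Each group holds 1 library, so no library could be left out and no paired analysis was possible because no group has a second sample. Of 50 member ratios, total counts changed the sign of 5 and FPKM of 7. Median-of-ratios size factors, adding 0.1 or 2 CPM, no floor or one of 100 reads changed the sign of 0, and TMM without the genes apart in 1 library that of 1 (Atf6b, difference of the knockdown ratios). Counts of members at 2-fold moved most with FPKM, which gave 2 lower with knockdown in normal culture against 0, 1 lower with knockdown under OGD against 3, 4 higher and 1 lower with OGD in control cells against 2 and 0, and 2 at a 2-fold difference of the knockdown ratios against 0. Total counts gave 1 lower with OGD in control cells (Eif2ak3) against 0, and 2 lower with knockdown under OGD. Median-of-ratios size factors gave 1 at a 2-fold difference (Syvn1) against 0, and 3 higher with OGD in control cells. FPKM values were used without TMM factors. With them the median of all genes moved by 0.19 with knockdown under OGD and by -0.21 with OGD in control cells. The cause of the moves in these counts was not tested. Depth limits Eif2ak3 most, with 97 reads in control cells under OGD.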

Other observations

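The binding partners and processing enzymes of the sensors, 19 genes, gave few calls. Among all genes, OGD gave 9.36% higher and 22.2% lower in control cells, and 19.1% and 16.9% in knockdown cells. Knockdown in normal culture gave 16.3% lower. With OGD in control cells 2 were higher (Dnajb9 and Hspa5) and 1 lower, Map3k5 (ASK1, a kinase downstream of IRE1), which held 9 reads against 167. With OGD in knockdown cells Dnajb9 and Mapk8 (JNK1) were higher, at 3.32 and 1.03, and Map3k5 was lower, at -1.54. With knockdown in normal culture Map3k5 and Dnajb9 were lower, at -1.47 and -1.06. Mbtps2, the protease that makes the second cut in ATF6, stood at 0.92 with knockdown in normal culture and 0.73 with knockdown under OGD, short of 2-fold in each.

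The other eIF2α kinases, the gene of eIF2α itself and the phosphatase subunits that act against the kinases made a list of 6 genes. With OGD in control cells 2 of these were higher, against 9.36% of all genes. These were Ppp1r15a (GADD34) at 7.67-fold (7.04 to 8.37) and Ppp1r15b (CReP) at 2.05-fold (1.91 to 2.21). With total counts 1 of the 6, Ppp1r15a, was higher. Eif2ak2 (PKR) was lower with OGD, at -1.33 in control cells and -1.92 in knockdown cells. Of the OASIS family, relatives of ATF6, Creb3l2 stood at -0.80 with OGD in control cells, past 2-fold with total counts, and was lower at 2-fold in knockdown cells, at -1.14.

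Among 9 known substrates of IRE1-dependent mRNA decay, knockdown went with 2 lower in normal culture, where 16.3% of all genes were lower. Under OGD 1 of 8 with enough reads was lower, against 4.23% of all genes. Col6a1 was lower in both, at -1.10 and -1.35. The other in normal culture was Scara3, which held 40 reads in control cells in normal culture and 0 in each other library. Scara3 was also the 1 of 9 lower with OGD in control cells, against 22.2% of all genes. There 0 of the 9 were higher, and the decay substrate Bloc1s1 stood at -0.41. The part of IRE1 in these ratios was not tested. Col6a1 is also the gene whose profile lay nearest that of Xbp1.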
